A study of Mus musculus with 4 samples.

Results

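Keratin transcripts were measured in cultured mouse alveolar type II cells, which secrete surfactant in the lung. All genes whose mouse symbol is Krt followed by a digit were taken, which gave 54 of the 28096 genes in the tables. Of these, 5 are keratins of simple (single-layered) epithelium, 7 are basal or stress keratins, and 42 are others, including 16 hair keratins and 8 keratins of the inner root sheath of the hair follicle. There were 28 type I and 26 type II keratins.

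The study sorted EpCAM-positive lung cells that lacked CD24, CD45, CD31 and podoplanin. They were cultured in matrigel with BEGM and 100 nM 4-hydroxytamoxifen (4OHT) for 4 days and without it for 1 further day. The 4 libraries of polyadenylated RNA analysed here share 1 genotype label, whose part on the Etv genes reads Etv wt. The submitters' design lists mice with RosaCreERT2, mice with RosaCreERT2 and Etv5loxp/loxp, and mice that carry Etv4KO/KO in addition to both, each with 4 animals. All 3 share RosaCreERT2, a Cre recombinase that is activated by tamoxifen and made from the broadly active Rosa locus. Of these 3 genotypes, only RosaCreERT2 alone names no altered Etv gene, but how the label maps onto the 3 is not stated. Neither the age nor the sex of the animals is given. The labels do not number the libraries, so library 1 to library 4 are names in accession order, and nothing in them ties a library to an animal. The spread between libraries may therefore be in part technical.

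Keratins are the intermediate filament proteins of epithelial cells. A filament is built from pairs of one acidic type I and one basic type II keratin, so epithelia express them in partnered sets. Krt8 and Krt18 are the partners of simple epithelia and Krt5 and Krt14 those of basal cells, while Krt6a, Krt6b, Krt16 and Krt17 are known as keratins of wounded or stressed epithelium. In injured mouse lung, Krt8 marks cells in transition from type II to type I alveolar cells, and Krt5 marks airway basal cells and the cells derived from them.

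Levels are the size-factor-adjusted RPKM of the submitters (nRPKM), in which a read count is scaled for library and gene length, so that genes can be compared. Total counts were between 12133251 and 13591876 per library, and 3 reads, the most that a count of 0 allows, were between 0.221 and 0.247 CPM; these limits cover counting error only. The 10 listed type II marker genes averaged over 1 nRPKM each, against 42.4% of all genes at 1 or more. They ranged from the transcription factor gene Etv5 at 26.3 ± 9.63 to Sftpc at 10006 ± 3649 nRPKM (SD, n = 4). Library 1 stood apart, with the lowest level of 10 of the 10 genes, against 26.8% of all genes, and Sftpc was at 6301, 8377, 14834 and 10512 nRPKM in libraries 1 to 4. Library 3 stood apart in Xist, at 66.3 nRPKM against 0.255 to 0.784 in the others, and in the Y-linked Eif2s3y, at 0.243 against 14.6 to 23.2 nRPKM. A level that is lowest or highest in library 3 cannot be told apart from this difference in sex-linked genes. The mitochondrial ribosomal RNAs took 23.02%, 35.1%, 19.6% and 38.9% of the counts in libraries 1 to 4.

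The 8 most abundant keratins averaged 10 nRPKM or more, and the promoter table of RefSeq (GRCm38.p6) held 6 of them. The 250 bases before the transcription start of each are shown because these are the most abundant keratins, whose levels are given next (Krt23 belongs to neither the simple nor the basal set). Krt19 and Krt6a were not in the table. Capitals mark the TATA box TATAAA, the variant run ATAAAA, the AP-1 motif TGANTCA, the ETS motif CCGGAA or the GC box GGGCGG, each searched on both strands. The first can overlap the second, and the second was added after the sequences had been read. The build differs from the mm9 build of the read alignment.
Krt7 (chr15:101412153-101412402, plus strand): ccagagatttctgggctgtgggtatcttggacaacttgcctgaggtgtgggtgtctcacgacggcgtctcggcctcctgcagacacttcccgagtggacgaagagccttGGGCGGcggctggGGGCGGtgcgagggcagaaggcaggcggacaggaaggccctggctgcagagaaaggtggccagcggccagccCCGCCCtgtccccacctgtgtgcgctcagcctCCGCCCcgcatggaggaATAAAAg
Krt8 (chr15:102004343-102004592, minus strand): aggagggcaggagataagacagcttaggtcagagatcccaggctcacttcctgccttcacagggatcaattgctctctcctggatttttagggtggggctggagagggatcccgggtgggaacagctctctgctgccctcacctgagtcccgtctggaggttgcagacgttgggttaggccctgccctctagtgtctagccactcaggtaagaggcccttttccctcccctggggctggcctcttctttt
Krt18 (chr15:102027966-102028215, plus strand): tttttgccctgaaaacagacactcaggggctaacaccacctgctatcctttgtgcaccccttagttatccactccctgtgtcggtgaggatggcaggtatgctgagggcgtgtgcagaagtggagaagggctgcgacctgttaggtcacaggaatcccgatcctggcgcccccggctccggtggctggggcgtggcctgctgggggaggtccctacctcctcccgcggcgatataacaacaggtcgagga
Krt23 (chr11:99493121-99493370, minus strand): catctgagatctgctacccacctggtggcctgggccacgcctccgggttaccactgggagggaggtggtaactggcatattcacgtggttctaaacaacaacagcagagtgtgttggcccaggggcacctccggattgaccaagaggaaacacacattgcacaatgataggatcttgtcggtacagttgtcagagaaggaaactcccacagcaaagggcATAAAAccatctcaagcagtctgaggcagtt
Krt5 (chr15:101712906-101713155, minus strand): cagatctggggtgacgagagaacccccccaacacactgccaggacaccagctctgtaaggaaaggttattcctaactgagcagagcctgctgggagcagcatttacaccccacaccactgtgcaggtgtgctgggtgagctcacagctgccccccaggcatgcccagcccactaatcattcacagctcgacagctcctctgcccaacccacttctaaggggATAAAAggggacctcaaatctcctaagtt
Krt14 (chr11:100206031-100206280, minus strand): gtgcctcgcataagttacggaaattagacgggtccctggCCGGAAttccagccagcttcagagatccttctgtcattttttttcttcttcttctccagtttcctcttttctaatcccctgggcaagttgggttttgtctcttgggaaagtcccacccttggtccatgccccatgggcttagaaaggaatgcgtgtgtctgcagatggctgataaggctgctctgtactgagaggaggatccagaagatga
The Krt7 window held 4 GC boxes and the variant run ATAAAA, the Krt5 and Krt23 windows that run once each, the Krt14 window 1 ETS motif, and the Krt8 and Krt18 windows none of these letters. Among all 36 keratins in the table, 17 held the TATA box, 20 the variant run, 1 the AP-1 motif, 1 the ETS motif and 2 the GC box. Of all 32851 windows in the table, 12.4%, 17.0%, 6.75%, 12.03% and 32.7% held these motifs in the same order. None of the 6 windows printed held the TATA box or the AP-1 motif.

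Simple keratins made up most of the keratin RNA. They took 80.3%, 76.7%, 91.5% and 85.3% of the summed keratin level in libraries 1 to 4 (mean 83.5% ± 6.43, SD, n = 4). All 5 averaged 1 nRPKM or more and 3 averaged over 100. Over the whole family 15 of 54 keratins averaged 1 or more, against 42.4% of all genes.

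Krt19, a short type I keratin of simple epithelia and ducts, had the highest level, at 344, 182, 244 and 188 nRPKM in libraries 1 to 4. It ranked 79th of all genes by mean. Krt18, the type I partner of Krt8, had 293, 147, 207 and 137 nRPKM. Both were highest in library 1, next in library 3, and lower in libraries 2 and 4.

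Krt7, a type II keratin of glandular and ductal epithelium, had 175, 128, 209 and 149 nRPKM in libraries 1 to 4. Krt8, the type II partner of Krt18, had 41.2, 20.2, 43.0 and 23.3 nRPKM. For both, the values of libraries 1 and 3 did not overlap those of libraries 2 and 4. Krt20, known from gut epithelium and urothelium, was low, with 0.788, 1.96, 0.668 and 1.78 nRPKM from 27 to 67 reads. It was higher in libraries 2 and 4, the reverse of the other simple keratins.

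**Figure D1:**
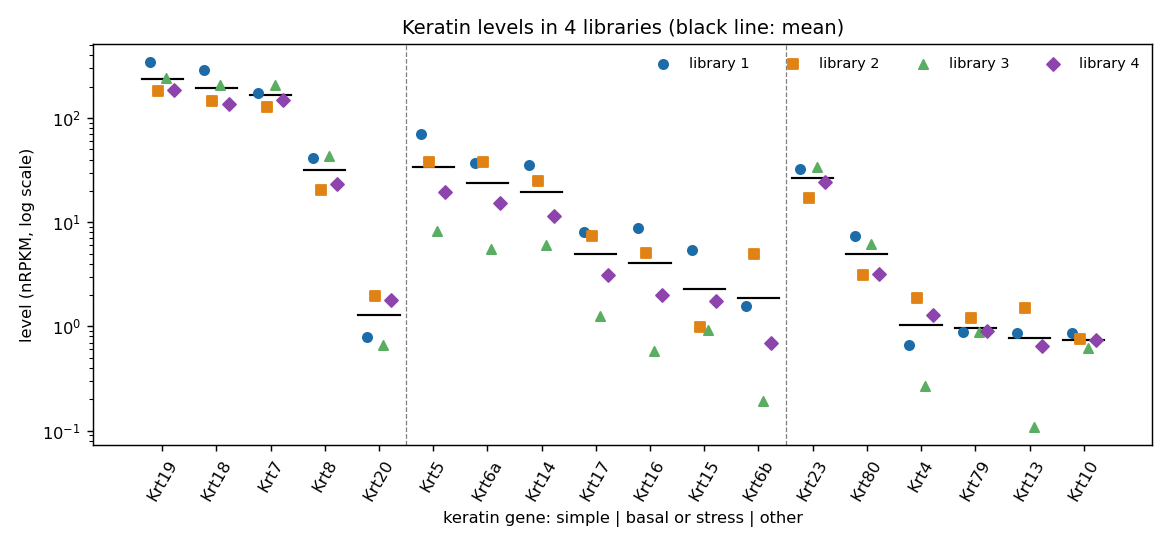
Level of each keratin with a mean of at least 0.5 nRPKM (horizontal axis, grouped as simple, basal or stress, and other) on a log axis in nRPKM; points are the 4 libraries and black lines their means. Krt19, Krt18 and Krt7 lie above 100 nRPKM in every library, while the basal or stress keratins are lowest in library 3.

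Krt8 stood far below its partner. The level of Krt8 was 0.141, 0.138, 0.208 and 0.170 times that of Krt18 in libraries 1 to 4, and the log2 difference of Krt8 minus Krt18 was -2.59 ± 0.27 (SD, n = 4, on the log2(nRPKM + 1) scale; lower in 4 of 4 libraries). An exact permutation test that flips the sign of each library's difference, two-sided, gave p = 0.13 (adjusted p = 0.143 over 8 pairs). This exact p is the smallest that 4 libraries allow. Krt8 was also below Krt7, by a log2 difference of -2.39 ± 0.28 (exact permutation p = 0.13). Only reads that aligned to a single place were counted. Of the 50-base words of the Krt8 transcript, 29.7% also occur in another annotated gene, most of them in the processed pseudogene Krt8-ps (26.9%), against 0.720% for Krt18 and 0.222% for Krt7. The part of these shared words in the low Krt8 level was not tested, since read lengths are not given.

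Krt7 was below Krt19 in 4 of 4 libraries, by a log2 difference of -0.51 ± 0.33, and Krt18 was below Krt19 in 4 of 4, by -0.31 ± 0.10 (exact permutation p = 0.13 for each, adjusted p = 0.143). The Krt18 to Krt19 ratio was the steadier of these pairs, from 0.729 to 0.851. The Krt7 to Krt19 ratio was 0.509 in library 1 and 0.704 to 0.857 in the other libraries. Summed over all 54 keratins, the type I level was 2.18, 1.65, 1.81 and 1.74 times the type II level in libraries 1 to 4.

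Basal and stress keratins were all expressed, and they ranged more widely between libraries than the simple keratins did. All 7 averaged 1 nRPKM or more, against 42.4% of all genes, but Krt6b did so through library 2 alone and averaged 0.819 without it. Their summed level was 166, 119, 22.8 and 53.8 nRPKM in libraries 1 to 4, a 7.30-fold range that was 3.09-fold without library 3, and their share of the keratin level was 15.6%, 19.0%, 2.96% and 9.20%. The summed simple keratins ranged 1.78-fold, at 855, 480, 703 and 499 nRPKM. In such bulk RNA, fewer cells of a type and less RNA per cell cannot be told apart.

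The partners of basal cells followed the same order of libraries. Krt5, the type II basal keratin, had 70.6, 37.9, 8.22 and 19.4 nRPKM in libraries 1 to 4. Krt14, its type I partner, had 35.1, 24.7, 6.10 and 11.5 nRPKM. Library 1 was highest and library 3 lowest for both, and libraries 1 and 2 did not overlap libraries 3 and 4. The mean of Krt5 was 34.0 nRPKM, and 21.8 without library 1.

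Krt5 exceeded Krt14 by a log2 difference of 0.67 ± 0.25 and in 4 of 4 libraries (exact permutation p = 0.13, adjusted p = 0.143). Their ratio kept between 1.35 and 2.01 while the level of Krt5 ranged 8.58-fold. By contrast, the log2 difference of Krt5 minus Krt8 was 0.76, 0.87, -2.25 and -0.25 in libraries 1 to 4 and changed sign between them (mean -0.22 ± 1.45; exact permutation p = 0.875). Without library 3 that mean was 0.46.

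Krt6a, a type II keratin of wounded epithelium, had 36.7, 38.1, 5.50 and 15.4 nRPKM. Krt17, a type I keratin of stressed epithelium, had 8.02, 7.31, 1.26 and 3.09 nRPKM, and the Krt6a to Krt17 ratio stayed between 4.35 and 5.22 (log2 difference 1.96 ± 0.31, higher in 4 of 4 libraries; exact permutation p = 0.13). Krt16, the usual type I partner of Krt6a, had 8.71, 5.04, 0.580 and 2.00 nRPKM, a 15.03-fold range, and its mean of 4.08 was 2.54 without library 1. These 3 genes were higher in libraries 1 and 2 than in libraries 3 and 4.

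Krt15, a type I keratin of basal keratinocytes, departed from that pattern, with 5.45, 0.982, 0.916 and 1.75 nRPKM, so that library 1 alone was high, and its mean of 2.27 was 1.22 without that library. Krt6b, a close copy of Krt6a, had 1.58, 5.01, 0.192 and 0.686 nRPKM from 72, 199, 9 and 25 reads. Its highest library was library 2, where it was 3.17 times the level of library 1, whereas Krt6a differed little between those libraries. The log2 difference of Krt6a minus Krt6b was 3.07 ± 0.63 (higher in 4 of 4 libraries; exact permutation p = 0.13). The ratio was 23.3, 7.61, 28.6 and 22.4 in libraries 1 to 4.

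Reads of this pair are partly inseparable. Of the 50-base words of Krt6a, 43.6% occur in Krt6b, and of those of Krt6b, 44.5% occur in Krt6a. Counted over any other annotated gene, the shares were 62.0% for Krt6a and 50.1% for Krt6b. They were 37.6% for Krt16, 14.4% for Krt14 and 12.2% for Krt5, so the levels of these genes are uncertain. The longest identical run in the coding sequences of Krt6a and Krt6b has 280 bases and starts at coding base 34 of both genes (GRCm38, GENCODE). It is shown because a read that falls within it fits both genes.
Krt6a and Krt6b: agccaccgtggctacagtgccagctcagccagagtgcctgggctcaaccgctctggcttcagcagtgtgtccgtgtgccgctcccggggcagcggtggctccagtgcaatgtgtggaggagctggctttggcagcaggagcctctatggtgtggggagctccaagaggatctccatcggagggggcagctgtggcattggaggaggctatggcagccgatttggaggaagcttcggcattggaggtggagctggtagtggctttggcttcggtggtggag

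**Figure D2:**
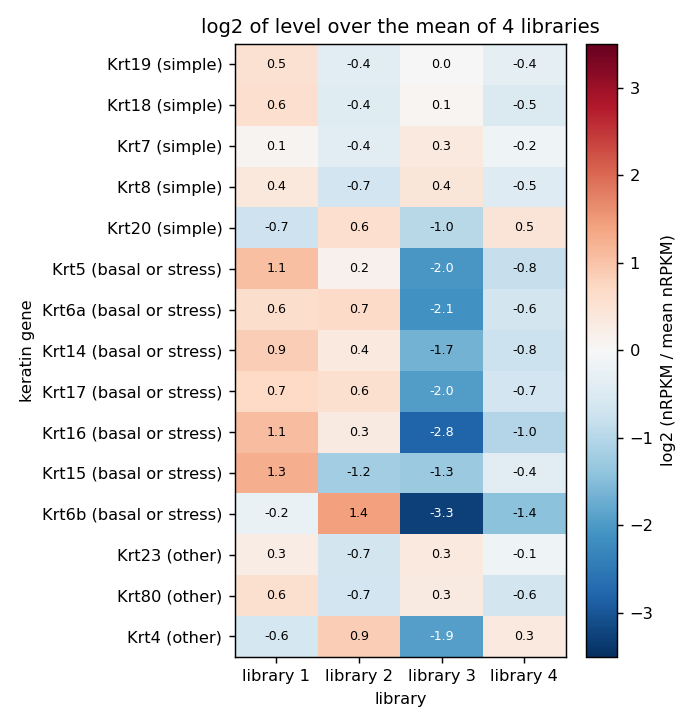
The log2 of the level in each library over the gene's mean of the 4 libraries, for the 15 keratins with a mean of at least 1 nRPKM, in rows by group; red is above and blue below the mean. All 7 basal or stress keratins are lowest in library 3, whereas Krt19, Krt18, Krt7 and Krt8 are lower in libraries 2 and 4 than in libraries 1 and 3.

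All 7 basal or stress keratins were lowest in library 3, against 18.4% of all 11904 genes with a mean of at least 1 nRPKM. The level of the highest library over the lowest was at least 4-fold for 8 of the 15 keratins at that mean, against 2.87% of the 11861 such genes with no library at 0. These 8 were the 7 basal or stress keratins and Krt4. Their ranges ran from 5.76-fold for Krt14 to 26.1-fold for Krt6b, with a median of 6.93-fold for the 7, against 2.12-fold for the 5 simple keratins and 1.58-fold for all genes. Libraries 1 and 2 lay above libraries 3 and 4 for 6 keratins (Krt5, Krt6a, Krt6b, Krt14, Krt16 and Krt17), against 16.9% of all genes. Libraries 1 and 3 lay above libraries 2 and 4 for another 6 (Krt7, Krt8, Krt18, Krt19, Krt23 and Krt80), against 17% of all genes. The full order of libraries 1, 2, 4 and 3 from high to low was held by 4 of the 15 (Krt5, Krt14, Krt16 and Krt17), against 3.32% of all genes. These groupings of libraries were chosen after the levels were seen.

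**Figure D3:**
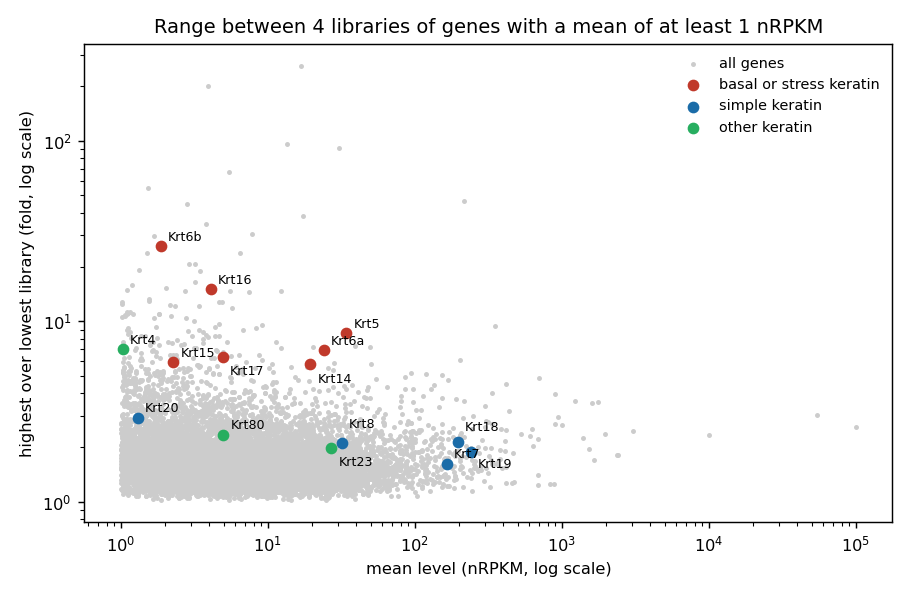
Highest over lowest library (fold, log axis) against the mean level (nRPKM, log axis) for all genes with a mean of at least 1 nRPKM in grey, with the 15 keratins in colour. The basal or stress keratins and Krt4 lie between 5.76-fold and 26.1-fold and the simple keratins between 1.63-fold and 2.93-fold.

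Spread between libraries was tested for each gene against the trend of genes of like abundance, with a quasi-likelihood model of edgeR on the counts and Benjamini-Hochberg adjustment over all genes. Of 16 keratins with enough reads in every library, 0 were called at an adjusted p under 0.05, against 0.0152% of 13156 genes. Krt5 came closest, with an adjusted p of 0.279. At an unadjusted p under 0.05 the edgeR test held 8 of the 16 keratins (Krt4, Krt5, Krt6a, Krt8, Krt14, Krt15, Krt16 and Krt17), against 5.13% of all genes. Without the filter on low counts, 5 of 40 keratins were called, against 0.321% of genes, and 5 of 40 were dispersion outliers in DESeq2, against 0.345%. Both settings named Krt5, Krt6a, Krt6b, Krt14 and Krt16. Counting error alone was exceeded by 16 of 20 keratins with at least 20 reads (chi-square test against library size, adjusted over all genes), against 75.2% of genes, so that most genes vary beyond it. Krt10, Krt79, Krt87 and Krt222 were the keratins that did not pass it.

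Genes that work with basal keratins were set beside them. Of the 8 listed basal cell genes other than keratins, 3 had a mean of at least 1 nRPKM, against 42.4% of all genes. Of these 3, 2 were lowest in library 3, against 18.4% of all genes with such a mean. Aqp3, a water and glycerol channel, had 7.54, 4.31, 0.623 and 1.11 nRPKM, and Col17a1, the collagen of hemidesmosomes, had 2.72, 2.79, 0.378 and 1.32 nRPKM. Bcam, a laminin receptor, was highest in library 3 (59.2, 69.4, 82.8 and 54.4 nRPKM). Of the 7 genes of the list with a read, 5 were lowest and 2 highest in library 3. The 18.4% does not cover those with a lower mean, and the share of all genes with a read was not counted. Below 1 on average, Trp63, the transcription factor of basal cells, had 1.08, 0.707, 0.150 and 0.375 nRPKM from 133, 76, 19 and 37 reads. Ngfr, a surface receptor of airway basal cells, had 0.619 nRPKM in library 1 and 0.0420 in library 3, the second from 3 reads. Jag2, a Notch ligand, was highest in library 3 (0.666, 0.611, 0.777 and 0.742 nRPKM), and Snai2, a transcription factor, lowest there (1.66, 0.979, 0.332 and 0.487 nRPKM). Trp63, Ngfr, Jag2 and Snai2 were picked with their values known, and Dapl1 had no read. The whole list summed to between 58.5 and 85.1 nRPKM, nearly all of it Bcam. Whether basal cells among the sorted cells take part in the keratin levels was not tested.

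Desmosomes, the junctions in which keratin filaments are anchored, divided in this respect. Of 14 listed genes, 10 had a mean of at least 1 nRPKM, against 42.4% of all genes. Of the 10, 5 were lowest in library 3, against 18.4% of all genes with such a mean. The armadillo protein gene Jup had 50.4, 65.4, 52.6 and 42.5 nRPKM, and Pkp2 had 14.7, 19.8, 17.9 and 20.4 nRPKM. Perp, a membrane protein of desmosomes, ranged from 36.1 nRPKM in library 1 to 13.1 in library 3. The widest ranges were those of 2 desmosomal cadherin genes at low levels. Dsc2, which is widely expressed, had 1.89, 2.74, 0.205 and 1.36 nRPKM and Dsg3, known from stratified epithelium, had 1.21, 1.74, 0.140 and 0.956 nRPKM, with library 2 highest and library 3 lowest for both. Dsg1a and Dsc1, cadherins of epidermis, had no read.

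**Figure D4:**
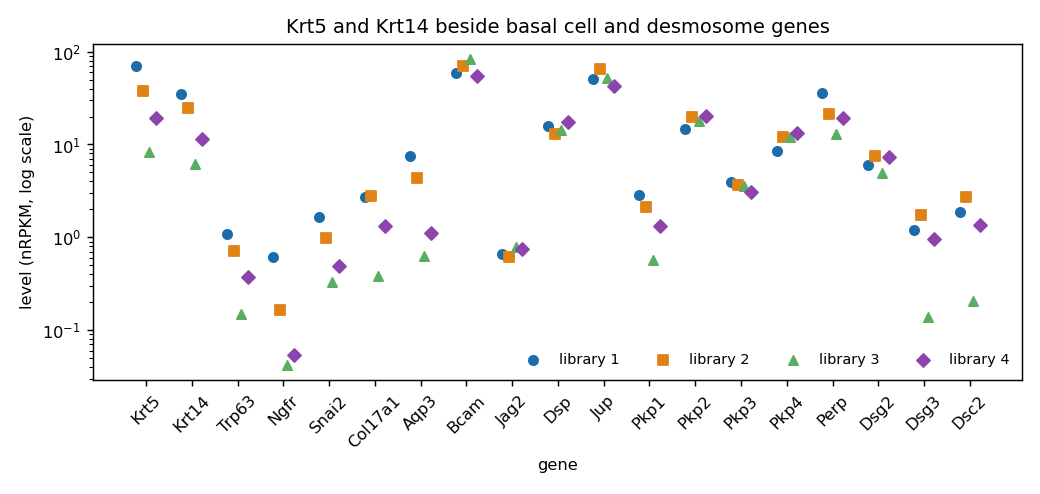
Levels (nRPKM, log axis) in the 4 libraries of Krt5 and Krt14, the 7 listed basal cell genes with a read, and the 10 listed desmosome genes with a mean of at least 1 nRPKM. Library 3 is the lowest for Krt5, Krt14, 5 of the 7 basal cell genes and 5 of the 10 desmosome genes, while Bcam and Jag2 are highest there. Of all genes with a mean of at least 1 nRPKM, 18.4% are lowest in library 3. That share does not cover Trp63, Ngfr, Snai2 and Jag2, whose means are lower.

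Hemidesmosome genes, which tie keratins to the basement membrane, all had a mean of at least 1 nRPKM (6 of 6, against 42.4% of all genes). Of the 6, 4 were lowest in library 3, against 18.4% of all genes with such a mean. Col17a1, already counted in the basal cell list, is among these 4. Cd151 had 40.7 ± 10.2 nRPKM and the integrin gene Itga6 19.2 ± 4.28 (SD, n = 4), while its partner Itgb4 had 10.2, 6.92, 3.23 and 4.58 nRPKM in libraries 1 to 4. Of 9 listed genes for keratin-binding and keratin turnover proteins, 9 had a mean of at least 1, against 42.4% of all genes. Of the 9, 0 were lowest in library 3, against 18.4% of all genes with such a mean. They were led by the 14-3-3 gene Ywhaz (245 ± 16.7 nRPKM), the ubiquitin ligase gene Stub1 (21.4 ± 4.77) and the cytolinker gene Ppl (15.9 ± 4.69), and Sfn, the 14-3-3 gene of epithelia, was at 9.69 ± 3.19 nRPKM.

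Among the 14 listed regulators of epithelial genes, 9 had a mean of at least 1 nRPKM, against 42.4% of all genes. Of these 9, 1 was lowest in library 3, against 18.4% of all genes with such a mean. All 14 had a read, and 4 of them were lowest there, but the 18.4% does not cover those with a lower mean. Trp63, also in the basal cell list, is among these 4. Klf5 had 38.3 ± 11.5 nRPKM, the AP-1 gene Jun 8.18 ± 2.25 and the AP-1 gene Fosl1 20.1, 10.5, 7.98 and 5.61 nRPKM in libraries 1 to 4. Klf4 was at 3.14 nRPKM in library 1 and 1.19 to 1.61 in the others. Genes of the cornified envelope, the outer shell of squamous cells, averaged at least 1 nRPKM for 4 of 14, against 42.4% of all genes. Sprr1a was abundant at 271, 153, 159 and 148 nRPKM, followed by Ivl (9.27 ± 1.47), Scel (8.76 ± 1.02) and the transglutaminase gene Tgm1 (4.98 ± 1.24), while Flg and Krtdap had no read.

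Of the other intermediate filament genes, 4 of 15 had a mean of at least 1 nRPKM, against 42.4% of all genes. The nuclear lamin gene Lmna had 12.1 ± 2.45 nRPKM and Lmnb1 8.23 ± 2.64 (SD, n = 4). Vim, the filament gene of mesenchymal cells, had 19.8, 11.1, 4.74 and 8.36 nRPKM, and so had the order of libraries of Krt5. The level of Krt19 was 16.4 to 51.5 times that of Vim.

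Among the 42 other keratins, 3 had a mean of at least 1 nRPKM, against 42.4% of all genes. Krt23, a type I keratin, had 32.3, 17.1, 33.8 and 24.2 nRPKM, close to the level of Krt8. Krt80, a type II keratin, had 7.38, 3.14, 6.22 and 3.18 nRPKM. Both were higher in libraries 1 and 3 than in libraries 2 and 4, as Krt7, Krt8, Krt18 and Krt19 were.

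Krt4 and Krt13, partners in the upper layers of mucosal epithelium, had another order of libraries. Krt4 had 0.667, 1.87, 0.269 and 1.29 nRPKM from 12 to 71 reads. Krt13 had 0.859, 1.5003, 0.109 and 0.654 nRPKM from 3 to 35 reads. Library 2 was the highest and library 3 the lowest for both, as for Krt6a, Krt6b, Krt20 and Krt79 and, at few reads, Krt25 and Krt222. Krt79 averaged 0.973 ± 0.157 nRPKM, and Krt10, a keratin of upper epidermal layers, 0.742 ± 0.103 nRPKM (SD, n = 4).

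Hair keratins and the epidermal keratins Krt1, Krt2 and Krt9 were close to or below the detection limit. No read was counted for 14 of the 54 keratins, about the share of all genes (26.8%). Of the 54, 29 never exceeded 3 reads in a library, against 10908 of all 28096 genes. The 16 hair keratins had 59 reads in all 4 libraries together, and 7 of them had none. The highest was Krt87, with 0.238 ± 0.0562 nRPKM from 5 to 10 reads, and 36.9% of its 50-base words occur in other genes. Apart from Krt87, 10 keratins below 0.5 nRPKM on average reached 3 reads in a library, with at most 10 (Krt222). The 8 inner root sheath keratins had 12 reads together and at most 3 in a library. Krt1, the epidermal partner of Krt10, had 5, 0, 1 and 0 reads, and Krt2 and Krt9 had none, which is not detectable at this depth. A level of at least 1 nRPKM in all 4 libraries was held by 10 of the 54 keratins, against 38.8% of all genes.

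**Figure D5:**
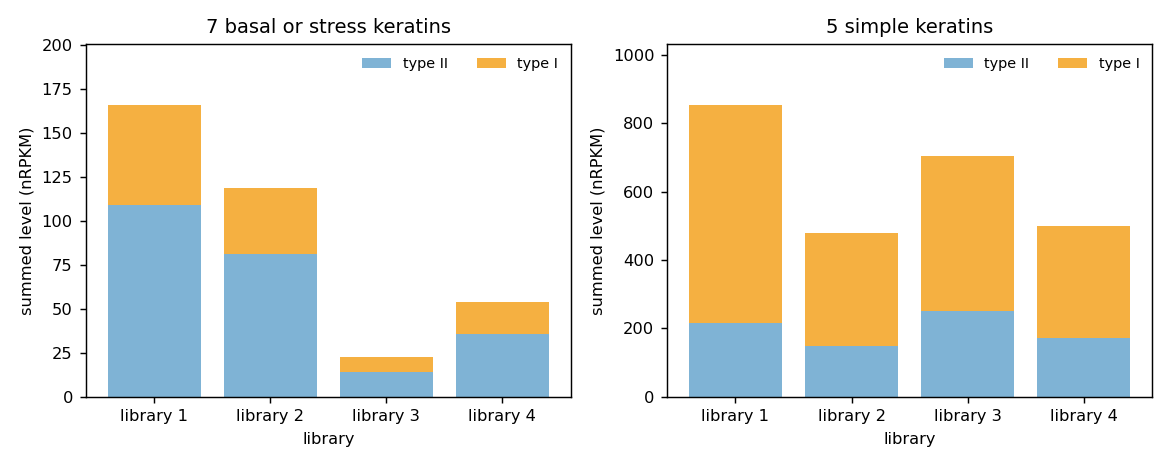
Summed level (nRPKM) of the 7 basal or stress keratins (left) and the 5 simple keratins (right) in each library, with type II at the bottom and type I on top of each bar. The basal or stress sum is 166, 119, 22.8 and 53.8 nRPKM in libraries 1 to 4, and the simple sum 855, 480, 703 and 499.

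The type I to type II balance differed between the sets. Within the basal or stress set, type I was 0.527, 0.469, 0.637 and 0.516 times type II in libraries 1 to 4. Within the simple set, type I was 2.95, 2.23, 1.79 and 1.90 times type II. Type II was therefore the more abundant type among basal or stress keratins and the less abundant among simple keratins in each library, with Krt8 counted at its uncertain level.

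Other measures also differed between the libraries, and only some had the order of the simple keratins. The simple keratins other than Krt20 were higher in libraries 1 and 3, the libraries with the smaller share of mitochondrial ribosomal RNA (23.02% and 19.6%, against 35.1% and 38.9% in libraries 2 and 4). The 9 listed type I cell markers summed to 660, 565, 724 and 555 nRPKM, also higher in libraries 1 and 3, but of the 9 genes only Ager (180, 127, 211 and 106 nRPKM) and Emp2 (141, 106, 125 and 94.2 nRPKM) had that order. Hopx, Pdpn, Akap5 and Rtkn2 were lowest in library 1, and Cav1 in library 3. Of 11 transitional alveolar genes other than keratins, 9 were highest in library 1, against 22.5% of all genes. The sum of the 11 was 1295, 965, 932 and 712 nRPKM. Libraries 1 and 3 lay above libraries 2 and 4 for 3 of the 11 (Nupr1, Cdkn1a and Areg), against 17% of all genes. The highest were Clu (378 ± 81.9 nRPKM) and the growth factor gene Areg (167 ± 41.7). Cdkn1a, a cell cycle inhibitor, had 206, 132, 185 and 118 nRPKM. Lgals3 was at 264 nRPKM in library 1 and 59.4 to 122 in the others, and Nupr1 at 86.8 against 21.4 to 29.1 nRPKM. The part of these measures in the simple keratin levels was not tested.

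Club cell genes were highest in library 2 for 4 of 5, against 25.4% of all genes, and lowest in library 3 for 4 of 5, against 18.4%. Among keratins with a read in every library, Krt4, Krt6a, Krt6b, Krt13, Krt20, Krt79, Krt222 and Krt25 had both extremes in the same libraries. Krt222 and Krt25 rest on at most 10 reads in a library. The share of all genes with both extremes there was not counted. Scgb1a1, the secretory protein gene of club cells, had 239, 880, 93.0 and 188 nRPKM, and Scgb3a2 had 1.34, 20.3, 0.851 and 3.42 nRPKM. The club list summed to between 150 and 1060 nRPKM. Mesenchymal genes were lowest in library 3 for 4 of 4 with a mean of at least 1, against 18.4% of all genes. Dcn was at 14.1, 4.41, 0.962 and 2.56 nRPKM, and the list sum was 28.5, 17.2, 5.18 and 12.2 nRPKM. Leukocyte genes summed to 85.4, 73.6, 40.2 and 27.5 nRPKM, and Laptm5 was at 7.81, 7.89, 1.95 and 0.947 nRPKM. Mesothelial cells also carry simple keratins, and their list summed to between 7.22 and 19.3 nRPKM, nearly all of it Msln, with Upk3b at 0 and Wt1 at 4 to 11 reads. The ciliated list summed to between 2.58 and 4.34 nRPKM, with Foxj1 at 1 to 9 reads. The part of these cell types in the keratin levels was not tested.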

How the data were processed

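Polyadenylated RNA of 4 libraries with the same genotype label was measured; part of the genotype is not reported here. Per the file headers, the authors deposited for each gene a count of reads aligned uniquely to the gene model and a size-factor-adjusted RPKM (nRPKM). The submitters' processing notes name GSNAP and mm9. Read length, strand use and annotation are not stated in the sources used here. The deposited RPKM equalled the count times a library factor over a gene length. Symbols came from a RefSeq gene table (GRCm38.p6) by Entrez ID, for 25035 of 28096 identifiers. Total counts ranged from 12133251 to 13591876.

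Pair differences are of log2(nRPKM + 1), which understates differences of low genes, with two-sided exact sign-flip tests in scipy 1.17.1 and Benjamini-Hochberg adjustment over 8 pairs. Spread was tested with edgeR 4.0.16 in R 4.3.3 (intercept only, TMM, filterByExpr, each gene's quasi-dispersion over the trended prior, F distribution, adjustment over all genes). On counts simulated for 13156 genes it recovered 26% of 4-fold and 90% of 8-fold changes of a single library. Whether these rates hold for the measured counts was not tested. In the measured counts the edgeR test called 2 of 13156 genes. It did not call Krt5, with a range of 8.58-fold between libraries (adjusted p = 0.279), or Krt16, with 15.03-fold (adjusted p = 0.339). The chi-square test took genes with at least 20 reads. Shared words were counted in the GENCODE M21 transcripts (GRCm38). The labels give 1 group, so there is no contrast between conditions. Members and lists were chosen with earlier results of these data known. The rule for named genes took all simple and basal or stress keratins, other keratins averaging 0.5 nRPKM or more, those with at least 3 reads in a library (by count and range), and of each other list the 3 highest genes and the 2 with the widest range. Of the marker lists of other cell types only some of these are printed beside the sums. Etv5, Xist, Eif2s3y, Wt1, Trp63, Ngfr, Jag2, Snai2, the type I markers beyond the rule and the genes without a read fall outside the rule and were chosen after their values were seen. DESeq2 1.42.0, other scalings, pseudocounts and filters and leaving out each library were tried as alternatives.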

Additional observations from a re-analysis of the deposited data

Results flagged for a closer look

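Of 33 values examined in the 4 libraries, 1 had a library far from the others: Krt79 was at 1.21 nRPKM in library 2, against 0.888 to 0.907 nRPKM in libraries 1, 3 and 4. It rests on 31 to 45 reads per library and did not exceed counting error in the chi-square test. Chance flags about 1 in 20 such values.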

How the results depend on the processing

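No paired analysis was possible because the labels give a single group. Of the recomputed values for results that answer a comparison, 120 counted as unchanged, 12 as moved and 2 as reversed. Unchanged meant the same sign for pair differences, within 1.5 times for counts and ranges, and within 1 SD for the other results. Part of the 120 was fixed in advance. Scaling whole libraries cannot change a share or a ratio within a library, and leaving out 1 of 4 libraries cannot move such a mean by 1 SD. Nor can leaving out a library reverse a pair difference that had the same sign in all 4. Of 90 recomputed gene means, 90 moved by less than 1 SD, an SD that includes the library left out. This was fixed for those without a library, since leaving out 1 of 4 libraries cannot move a mean that far. The rest changed only the library scaling. By over 1.5 times moved the means of Krt5 (34.0 to 21.8), Krt16 (4.08 to 2.54) and Krt15 (2.27 to 1.22) without library 1 and of Krt6b (1.87 to 0.819) without library 2. Keratins at a level of at least 1 in all libraries numbered 10, but 15 at a level of 0.5, 15 in CPM without length, 16 in CPM without length or the mitochondrial ribosomal RNAs, 40 with at least 1 read in any library, and 10 to 11 without a library. Krt5 minus Krt8 was -0.22, turned to 0.041 in CPM without length, and ranged from -0.58 to 0.46 without a library, the highest being without library 3. The range of the summed basal or stress keratins was 7.30-fold, and 3.09-fold to 7.30-fold without a library, with 3.09-fold being without library 3. Type I over type II was 1.84, but 1.48 in CPM without length, with or without the mitochondrial RNAs; the construction leaves out gene length. The edgeR spread test called 2 genes, 66 without the filter, 71 as DESeq2 outliers and 0 to 6 without a library (6 without library 1, 0 without library 2 or 3). It called 0 keratins, 5 without the filter and 5 as DESeq2 outliers. The cause was not tested. In CPM without length, 6 of 7 basal or stress keratins were lowest in library 3, and 7 of 7 in the other scalings. Depth limits the keratins under about 20 reads.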
